A study of Mus musculus with 9 samples.

Results

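Among the genes of mouse muscle stem cells, 96 were high in cells taken straight from muscle, fell to a low level in dividing culture, and were high again in myotubes. They were chosen from the measured values. A member was an autosomal protein-coding gene whose mean normalized read count was at least 200 in both freshly isolated cells and myotubes, with each of these means, plus 1, at least 4 times the proliferating mean plus 1. Of 20597 autosomal protein-coding genes 6194 had both means at or above 200, and 107 of these (1.73%) met both ratios. Names starting with Col, Adamts, Fxyd or Kcn were left out, which removed 11 genes and left the 96. For scale, 7.39% of the 6194 genes met the ratio for freshly isolated cells and 3.87% the ratio for myotubes. The fall and the return are thus the choice itself and are given below as levels without a test. Tests are given for the level in myotubes against that in freshly isolated cells. The choice set no condition on this difference, but it used both means, so the tests are not independent of it.

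Satellite cells are the resident stem cells of skeletal muscle. The cells came from C57Bl6 wild-type mice aged 12 to 20 weeks, with 3 libraries per stage and 9 in all. Freshly isolated cells were purified from muscle and not cultured. Proliferating cells had been kept for at least 3 days with 20% fetal calf serum in the medium and FGF-2 at 2.5 ng/ml. The third group, labelled as differentiating and called myotubes here, had then spent 6 days in 2% horse serum. A culture of this kind holds fused myotubes together with cells that did not fuse, and the labels give no share of either. Whether animals were pooled is not stated in the labels.

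A satellite cell at rest has left the cell cycle reversibly, and a myotube nucleus has left it for good. Between these states the activated cell divides as a myoblast. Genes that restrain division or build contacts with the matrix could be used on both sides of the dividing stage. So could genes that serve a cell that handles ions, fuel and oxygen without dividing. This is background, and whether it holds for the members was not tested. Transcription factors of the FoxO family, which insulin-like and other growth factor signals keep out of the nucleus, act on a number of growth arrest genes. The E-box with the core CAGCTG is bound by the myogenic factors MyoD and myogenin.

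Abcc9 marks the group. It encodes SUR2, the regulatory subunit of the ATP-sensitive potassium channel of muscle, which ties the membrane potential to the energy state of the cell. The gene lies on chromosome 6 (GRCm38, 142587862 to 142702315, minus strand). Its normalized read counts were 442, 640 and 603 in the freshly isolated libraries, 11, 60 and 48 in the proliferating and 1420, 1673 and 1751 in the myotube libraries. The 3 stages did not overlap, and the order was myotubes, freshly isolated, proliferating. Myotubes were higher than freshly isolated cells by 1.53 ± 0.49 (log2 difference ± SE, limma, adjusted p = 0.0156).

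The promoters of several members held 2 short sequences, shown because their shares among the member windows were above those among other promoters. The serum response element (CArG box) and the MEF2 motif, given below, were also above, but in only 3 and 2 member windows. The choice of what to show followed these shares, and no test was made. Windows of 300 bases, 250 before and 50 after each annotated start, were taken from RefSeq (GRCm38.p6) for the 68 of 96 members with an entry, giving 93 windows. The FoxO motif TGTTTAC was searched on both strands. It stood in 10 of the 93 windows (10.8%), in 3.65% of all 32851 windows and in 2.37% of the 6539 windows of genes with both means at or above 200. Each of the 10 windows belonged to a different member. The 30 bases around the match are given on the strand of the gene, with the motif, or its reverse complement, in capitals. They lie at chr3:96557825-96557854 (+) for Txnip, chr10:41810585-41810614 (+) for Sesn1, chr15:3270942-3270971 (+) for Sepp1, chr7:126776977-126777006 (+) for Ypel3 and chr14:51914140-51914169 (-) for Ndrg2.
Txnip: ttggaggcctgGTAAACAagggccaagtag
Sesn1: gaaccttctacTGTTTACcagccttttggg
Sepp1: cagagggcgagGTAAACAacagggctataa
Ypel3: ctggtctcggtGTAAACAagtcgaggcggc
Ndrg2: gcctccgcgccTGTTTACacaggagtcaga
The other 5 members with this motif were Etl4, Fcgrt, Pde1c, Spats2l and 9330159F19Rik. Against freshly isolated cells, 7 of these 10 members were lower in myotubes, 3 were not called and 0 were higher (by limma, with a threshold of 0.05 on the adjusted p), where 37.3% of all genes tested were lower and 40.2% higher, and 46.9% of the 96 members were lower and 17.7% higher.

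The E-box CAGCTG, which reads the same on both strands, stood in 26 of the 93 windows (28.0%), against 16.3% of all windows and 14.1% of those of genes with both means at or above 200. It was found in 24 members, Abcc9 among them. The examples lie at chr6:142702284-142702313 (-) for Abcc9, chr10:87860942-87860971 (+) for Igf1, chr19:6384228-6384257 (+) for Pygm, chr13:49607841-49607870 (+) for Ogn and chr4:138326368-138326397 (-) for Pink1, with the E-box in capitals.
Abcc9: gataggaggcagCAGCTGgcctcccaccac
Igf1: gggaagagaggtCAGCTGcctagagcgatt
Pygm: gaagaagtgggtCAGCTGtgaacacacccc
Ogn: tgcagtacactgCAGCTGccctagtgccgc
Pink1: caaagtgcaaacCAGCTGcaccaagggatg
Of the 24 members, 4 were higher in myotubes than in freshly isolated cells, 10 were lower and 10 were not called, shares near those of the 96 members as a whole. The other motifs are each given as the share of member windows, of all windows and of the windows of genes with both means at or above 200, in this order. The wider E-box CANNTG, which contains CAGCTG, was in 71%, 72.3% and 59.7%. TEAD (GGAATG) was in 12.9%, 14.7% and 11.3%, RBPJ (TGGGAA) in 22.6%, 25.6% and 21.4%, and the cell cycle element CHR (TTTGAA) in 11.8%, 17.9% and 10.5%. AP-1 (TGANTCA) was in 5.38%, 7.81% and 4.34%. For these 5 motifs the members thus lay below all windows and above those of the genes with both means at or above 200. CRE (TGACGTCA) was in 3.23%, 1.79% and 3.49%, the serum response element (CArG box) in 3.23%, 1.63% and 1.33%, and the MEF2 motif in 2.15%, 1.86% and 0.963%. The NFI motif was in 0 of the 93 windows, 0.0365% and 0.0153%. CRE and the CArG box each rest on 3 windows. Several windows of 1 gene overlap, so the 93 are not independent, and a match is a run of letters, not a measured binding site.

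By the medians over the members, though not in each member, the fall to the proliferating stage was deeper than the return was high. The choice set a minimum for both ratios, so nothing is read from this. The freshly isolated mean was 4.09 to 348 times the proliferating mean, with a median of 11.4, and the myotube mean was 4.01 to 195 times it, with a median of 7.15 (means plus 1). Each proliferating library was below each freshly isolated and each myotube library in all 96 members. This held for 12.5% of the 17291 genes tested and for 16.8% of the 6194, and since the choice used these values nothing is read from it. At the edge of the ratio, Tgfb2 (4.01), Setbp1 (4.03) and Psen2 (4.09) lay just inside, and Arl4a (3.95), Crebrf (3.94) and Tmem8b (3.93) just outside. At the edge of the level, Slco5a1, Cox7a1 and Setbp1 lay just inside with lower means of 203, 212 and 215, and Atf3, Ppfibp2 and Ypel2 just outside with 195, 195 and 194. In bulk samples fewer cells that express a gene and less RNA per cell cannot be told apart.

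How far the choice held in single libraries is given as a description. Libraries of the same stage were alike (r 0.926 to 0.991 on log2(value + 1)), so a high share was likely beforehand. No such share was computed for other genes, and nothing is read from it. When a library was left out and the members were chosen again, between 74.3% and 97.6% of the new members also met the rule with the left-out library standing alone for its stage. The lowest share was in proliferating 2, where 78 of 105 met it, and the highest in proliferating 1, with 83 of 85.

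**Figure D1:**
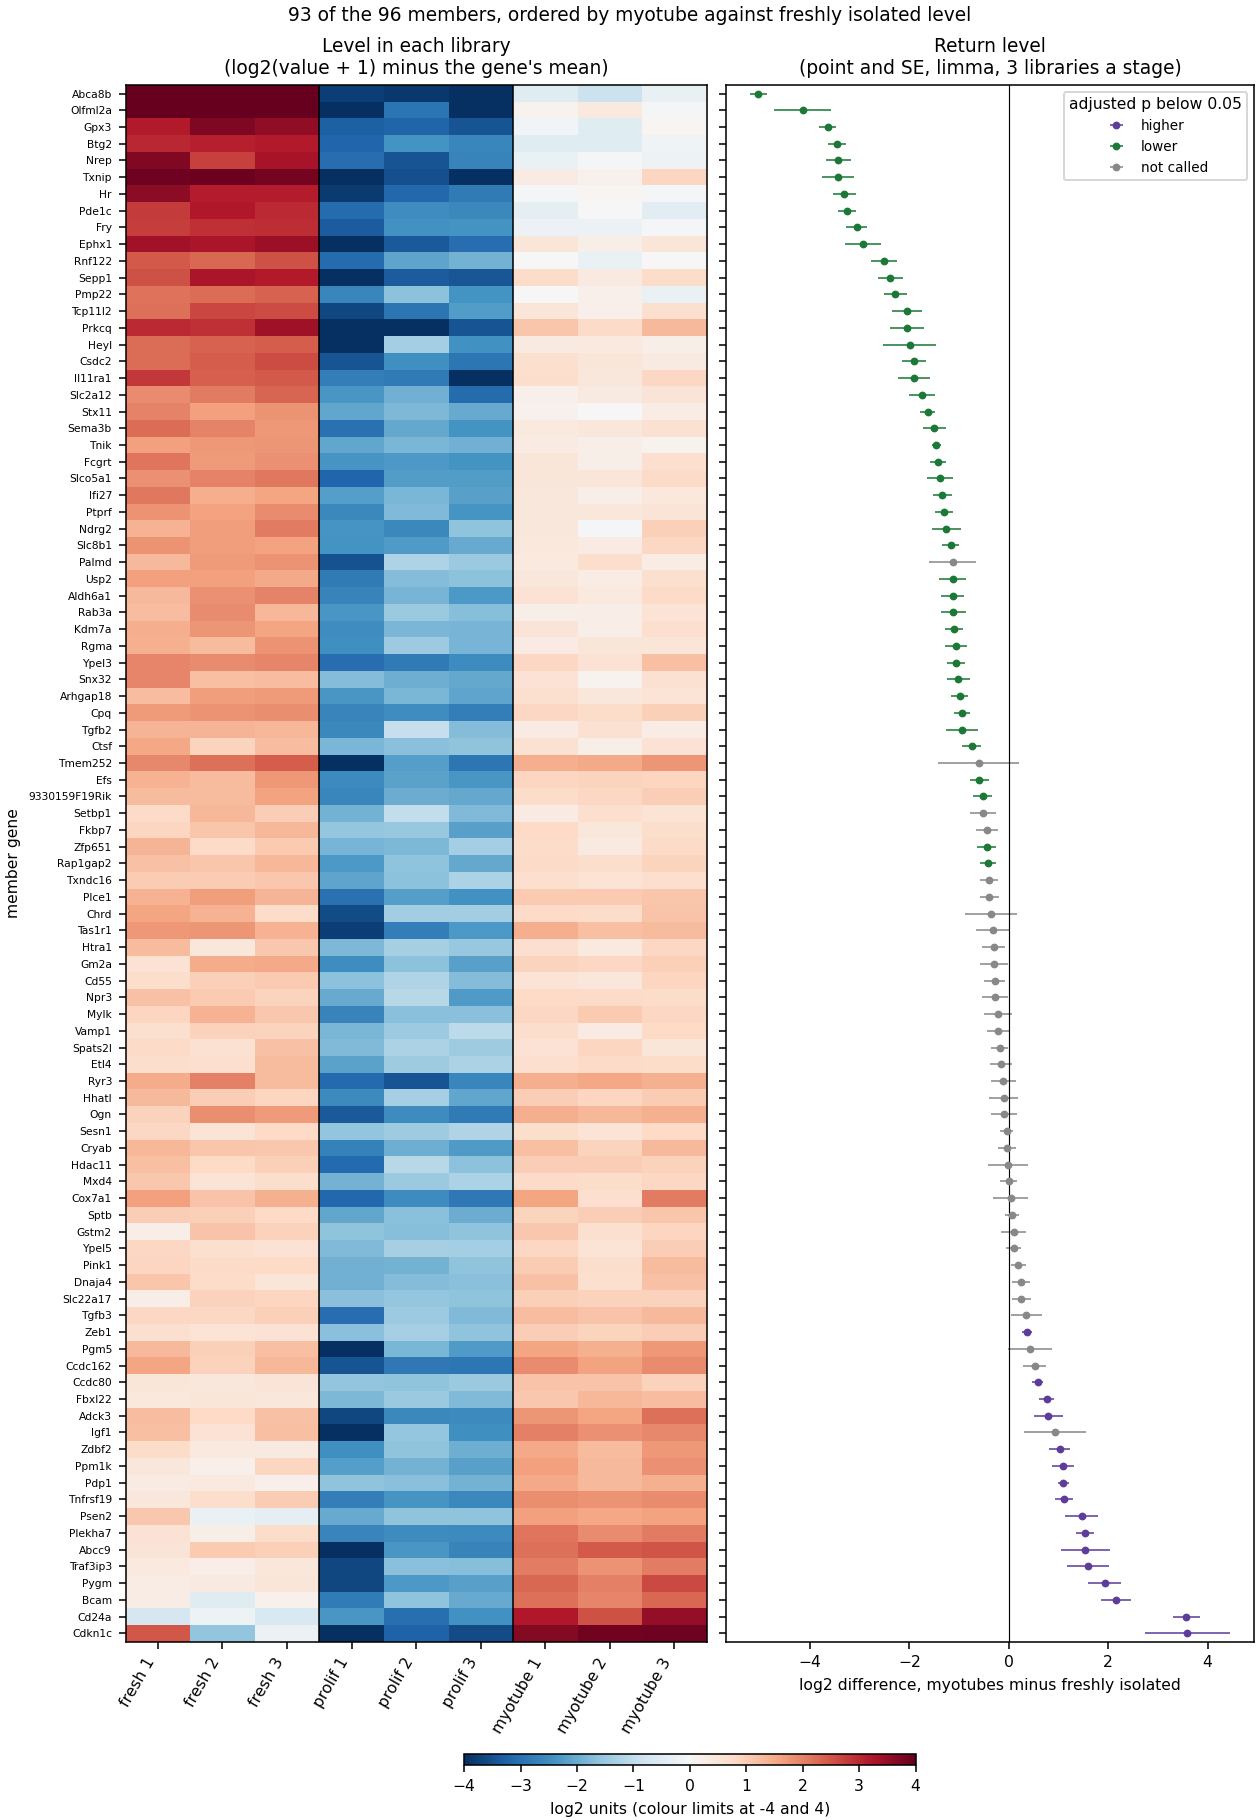
Left, log2(value + 1) of 93 of the 96 members (rows) in the 9 libraries (columns) minus the gene's own mean, in log2 units with colours ending at -4 and 4; right, the log2 difference between myotubes and freshly isolated cells with its SE, coloured by the limma call. The proliferating columns are blue in every row, while the right panel runs from -5.04 for Abca8b to 3.60 for Cdkn1c.

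The return in myotubes was incomplete for many members and overshot for a few. Of the 96, 45 (46.9%) were lower in myotubes than freshly isolated, 17 (17.7%) were higher and 34 (35.4%) were not called (limma, adjusted over 17291 genes, threshold 0.05). Of all genes tested 37.3% were called lower, 40.2% higher and 77.6% in either direction. Among the 6194 genes with both means at or above 200 the shares were 36.6%, 44.4% and 80.9%. The median log2 difference was -0.44 over the members (SD 1.53), 0.10 over all genes tested and 0.14 over the 6194. Every myotube library lay below every freshly isolated library in 52 members and above it in 21, and 23 overlapped, while among all genes tested 38.0% lay below and 40.7% above. A difference can miss the threshold because it is small or because the libraries vary, and the 34 members not called had log2 differences between -1.13 and 0.93 with SEs from 0.14 to 0.82. Of these, 2 had an unadjusted p under 0.05.

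The members are described by what they do, in groups of 3 to 13 that were formed after their values had been seen. Their counts, and those of the wider gene lists, stand beside 37.3% lower and 40.2% higher among all genes tested. Among the 96 members these shares were 46.9% and 17.7%.

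Genes that restrain cell division were 7 of the 96. Cdkn1c, which encodes the cyclin-dependent kinase inhibitor p57 and is imprinted (chromosome 7, 143458339 to 143461050), had counts of 5556, 334 and 850 in freshly isolated, 25, 106 and 83 in proliferating and 12852, 14582 and 14915 in myotube libraries. The freshly isolated libraries disagreed by more than 10-fold, and the myotube libraries lay above all of them. The log2 difference between myotubes and freshly isolated cells was 3.60 ± 0.86 (adjusted p = 0.00304). It was 4.72 without freshly isolated 1 and 2.70 without freshly isolated 2. Freshly isolated 1 was also the library with the most Myog (1257 against 62 and 218), and the part of this in the Cdkn1c value was not tested.

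The opposite case was Btg2, an antiproliferative gene induced in arrested cells. It had 7502, 7953 and 8324 in freshly isolated, 101, 174 and 152 in proliferating and 665, 658 and 844 in myotube libraries. Myotubes were above the dividing cells and 3.46 ± 0.19 below the freshly isolated cells on the log2 scale (adjusted p = 6.47e-08).

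Txnip, the thioredoxin-interacting protein that limits glucose uptake, followed it. Its counts were 3375, 3462 and 3237, then 7, 19 and 8, then 283, 254 and 416. Myotubes stayed below freshly isolated cells by a log2 difference of -3.43 ± 0.32 (adjusted p = 3.89e-06). The promoter of Txnip, 250 bases before its start (chr3:96557707-96557956, plus strand, GRCm38.p6), is printed because the gene had the fourth largest smaller ratio of all members and carries a FoxO motif, in capitals.
Txnip: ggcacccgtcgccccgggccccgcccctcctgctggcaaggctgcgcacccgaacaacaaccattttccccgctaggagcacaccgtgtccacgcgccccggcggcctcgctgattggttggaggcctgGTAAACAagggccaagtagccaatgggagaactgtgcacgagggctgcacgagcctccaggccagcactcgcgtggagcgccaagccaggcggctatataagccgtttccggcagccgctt

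Sesn1, a stress-induced inhibitor of mTORC1 signalling, came back to a level that overlapped its start, with 902, 745 and 884, then 169, 189 and 219, then 833, 735 and 880. The log2 difference between the outer stages was -0.05 ± 0.14 (adjusted p = 0.764). Mxd4, a partner of Max that opposes Myc, did likewise, with 1726, 1202 and 1327 against 1385, 1375 and 1442 in the outer stages (adjusted p = 0.995). Ypel5 was not called (0.10 ± 0.15), and its relative Ypel3, linked to growth arrest, was lower in myotubes (-1.06 ± 0.18, adjusted p = 0.000341). In a wider list of 33 growth arrest genes and FoxO targets, which holds Btg2, Cdkn1c, Sesn1 and Txnip, 22 were lower and 8 higher in myotubes (limma, same threshold) than when freshly isolated.

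**Figure D2:**
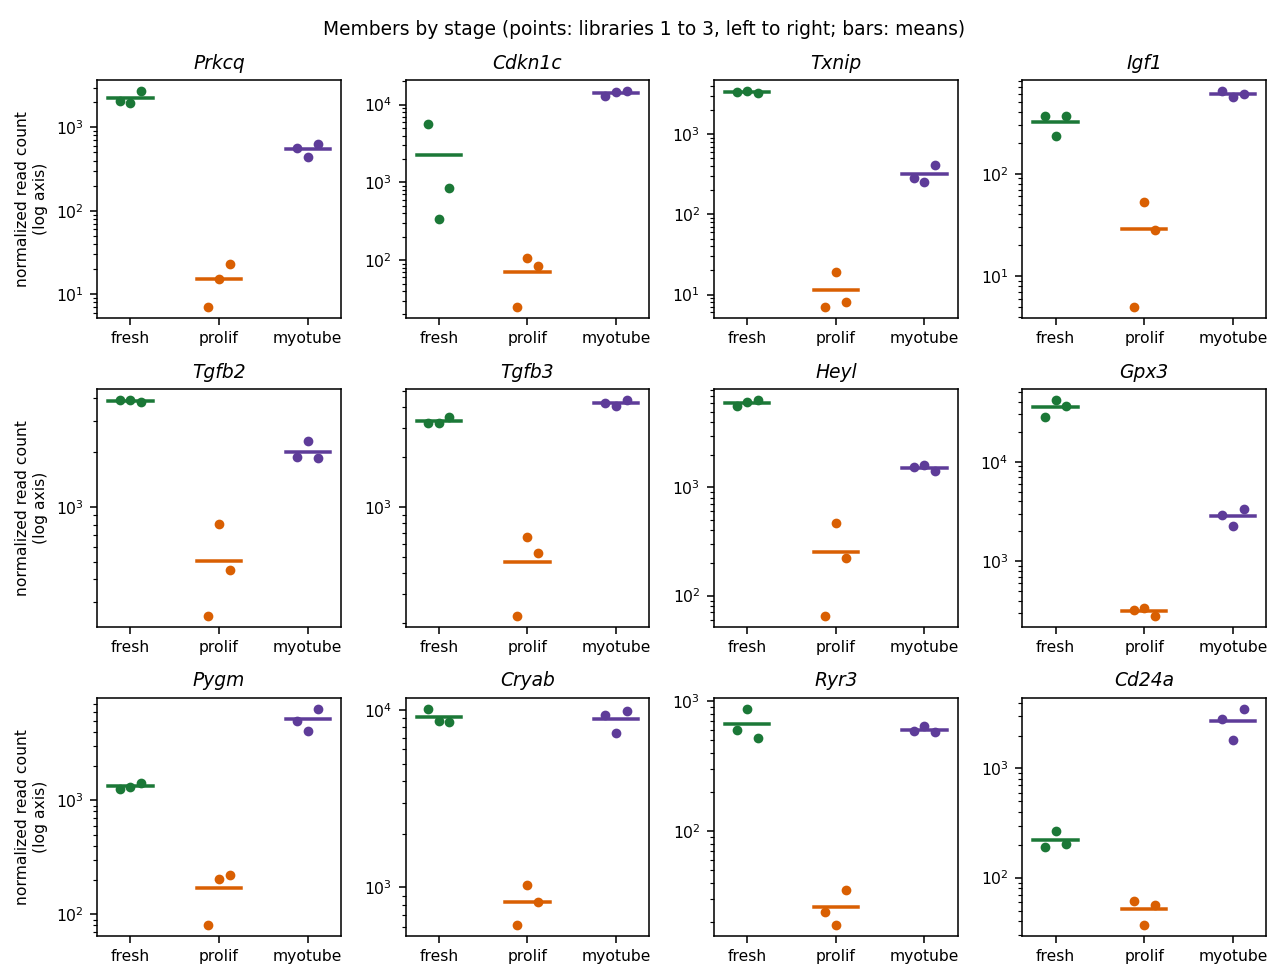
Normalized read counts (log axis) of 12 members in the libraries of each stage, with points for libraries 1 to 3 from left to right and bars for the means. The proliferating points lie lowest in each panel; Cdkn1c, Pygm and Cd24a end above the freshly isolated points, Txnip, Gpx3, Heyl, Tgfb2 and Prkcq below them, and Cryab and Ryr3 among them.

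Of the 4 selenoproteins and detoxifying enzymes, 3 were lower in myotubes than in freshly isolated cells and 1 was not called. Gpx3, the secreted glutathione peroxidase (chromosome 11, 54902453 to 54910377), had the highest level per length of exon of all members in freshly isolated cells, 19532 per kb. Its counts were 28213, 41677 and 36345 in freshly isolated, 327, 339 and 283 in proliferating and 2920, 2252 and 3330 in myotube libraries. Myotubes were lower than freshly isolated cells by a log2 difference of -3.64 ± 0.17 (adjusted p = 2.66e-08).

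Sepp1, selenoprotein P, which carries selenium between tissues, had 1933, 3246 and 3037, then 19, 32 and 30, then 556, 428 and 560 (log2 difference -2.38 ± 0.25, adjusted p = 8.03e-06). Ephx1, the microsomal epoxide hydrolase, had 4913, 4625 and 5153, then 16, 46 and 57, then 679, 569 and 668 (-2.94 ± 0.36, adjusted p = 3.15e-05). In both genes no myotube library came near a freshly isolated one. The glutathione transferase Gstm2 was the exception of the 4 and was not called (0.09 ± 0.24, adjusted p = 0.736). Gstm2 belongs to a family of similar genes, among which reads can be shared.

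Among ion pumps, channels and transporters 5 of 8 were lower in myotubes, 1, Abcc9, was higher and 2 were not called. Abca8b, a lipid transporter of the ABC family, had the largest ratio of freshly isolated to proliferating level of all members and the lowest myotube level relative to freshly isolated cells. It had 11626, 12954 and 12663 in freshly isolated, 39, 37 and 28 in proliferating and 389, 304 and 446 in myotube libraries. The log2 difference between myotubes and freshly isolated cells was -5.04 ± 0.17 (adjusted p = 3.35e-09).

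Ryr3, a calcium release channel of the endoplasmic reticulum found in developing muscle, had 604, 874 and 523, then 24, 19 and 35, then 589, 641 and 580. The outer stages overlapped (log2 difference -0.11 ± 0.25, adjusted p = 0.693), and the exons overlap those of Aven. The mitochondrial sodium/calcium exchanger Slc8b1 was lower in myotubes (-1.17 ± 0.17), as were the sugar transporter Slc2a12 (-1.75 ± 0.27) and Slco5a1 (-1.39 ± 0.26), and Slc22a17, a lipocalin receptor, was not called (0.25 ± 0.20).

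The channel that Abcc9 serves has a pore made by Kcnj8 or Kcnj11, and neither pore gene followed Abcc9. Kcnj8 had 72, 41 and 28 in freshly isolated, 2, 2 and 0 in proliferating and 0, 1 and 0 in myotube libraries, and was lower in myotubes than in freshly isolated cells (log2 difference -5.15 ± 0.59, adjusted p = 1.78e-05). Kcnj11 had 0, 4 and 1, then 1, 6 and 2, then 49, 30 and 47, and was higher in myotubes (4.29 ± 0.66, adjusted p = 0.000162). Of the pore genes, Kcnj8 was thus the more abundant in freshly isolated cells and Kcnj11 in myotubes, both far below Abcc9 at the same stage in counts not divided by length. Abcc8, the other regulatory subunit, had 26, 7 and 5, then 22, 20 and 25, then 71, 62 and 67 (2.63 ± 0.51, adjusted p = 0.000804). Values this low rest on few reads, since 1 read was worth 0.749 to 2.18 units.

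**Figure D3:**
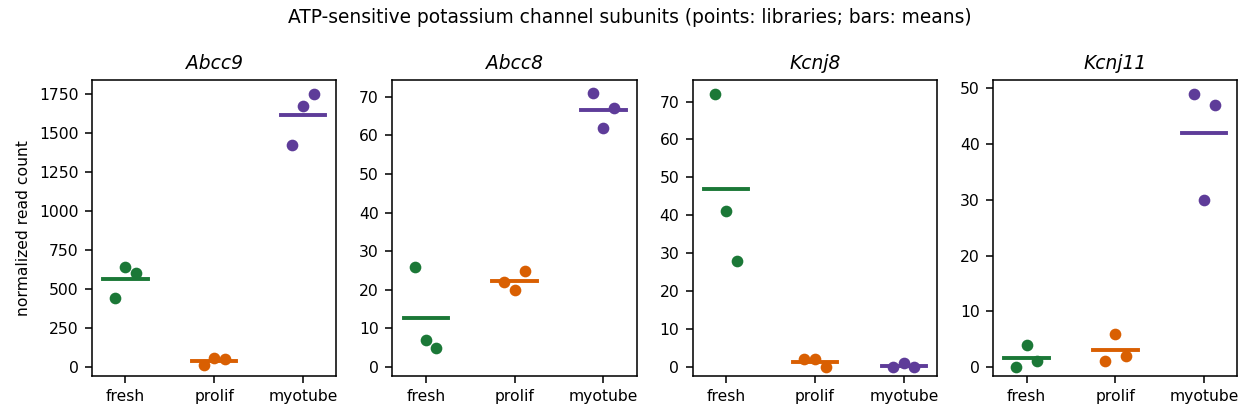
Normalized read counts (linear axes, each panel on its own scale) of the 4 subunit genes of ATP-sensitive potassium channels, with a point per library and a bar for each mean of 3. Abcc9 is high at both outer stages, among these stages Kcnj8 is above 2 only in freshly isolated cells, and Kcnj11 is above 6 only in myotubes.

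Over the 9 libraries the genes most like Abcc9 in log2(value + 1), of 12161 with a mean of at least 50, were Eepd1 (Pearson r 0.996), Dopey2 (0.993), Slc38a9 (0.993), Cpeb2 (0.992) and P4ha1 (0.991). These 5 are not members, because their proliferating levels fell less than 4-fold. Eepd1, for example, had 157, 210 and 192, then 48, 85 and 83, then 284, 280 and 306. The correlation is a description over 9 libraries that share the same 3 stages. The members nearest to Abcc9 by this measure were Traf3ip3 (0.990), Pygm (0.986), Tgfb3 (0.984), Igf1 (0.982), Zdbf2 (0.982) and Adck3 (0.981).

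Genes of fuel use and mitochondria had the largest share of members above their starting level of all 12 groups, 4 of 7, with 1 lower and 2 not called. Of all genes tested 40.2% were higher, and of the 6194 genes 44.4%, so with 7 genes nothing is read from this share. Pygm, the glycogen phosphorylase of muscle (chromosome 19, 6384399 to 6398459), had 1253, 1302 and 1429 in freshly isolated, 81, 204 and 222 in proliferating and 4969, 4079 and 6347 in myotube libraries. The log2 difference between myotubes and freshly isolated cells was 1.93 ± 0.33 (adjusted p = 0.000317), with no overlap.

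Pdp1, the phosphatase that activates pyruvate dehydrogenase, had 782, 805 and 715, then 200, 193 and 167, then 1756, 1530 and 1647 (1.10 ± 0.11, adjusted p = 6.78e-06). Ppm1k, the phosphatase that activates breakdown of branched-chain amino acids, was higher by 1.09 ± 0.21 (adjusted p = 0.000851). Adck3, needed for coenzyme Q synthesis, was higher by 0.80 ± 0.28 (adjusted p = 0.0255), and was no longer called without freshly isolated 2 (0.66, adjusted p = 0.0895). Its exons overlap those of Cdc42bpa.

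Aldh6a1, an enzyme of valine breakdown, was the lower one (-1.13 ± 0.23, adjusted p = 0.00113). Pink1, the kinase that marks damaged mitochondria, overlapped its start, with 1593, 1518 and 1526, then 234, 235 and 291, then 1802, 1430 and 2132 (0.19 ± 0.15, adjusted p = 0.258). Cox7a1, the muscle form of a cytochrome oxidase subunit, had 246, 176 and 215, then 8, 13 and 10, then 236, 127 and 334 (0.04 ± 0.35, adjusted p = 0.932).

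Most muscle structure genes and chaperones were not called between the outer stages: of 7, 1 was higher in myotubes, 0 were lower and 6 were not called. Cryab, the small heat shock protein that protects desmin and the Z-disc, had 10157, 8734 and 8549 in freshly isolated, 616, 1034 and 829 in proliferating and 9366, 7453 and 9894 in myotube libraries. The outer stages overlapped (log2 difference -0.04 ± 0.18, adjusted p = 0.828), and the exons overlap those of Hspb2. Cryab was the only member in a list of 42 sarcomere genes, of which 39 were higher and 0 lower in myotubes than in freshly isolated cells.

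Sptb, erythrocytic beta-spectrin, which muscle also makes, had 525, 514 and 464, then 62, 83 and 66, then 486, 521 and 565 (0.06 ± 0.15, adjusted p = 0.71). Dnaja4, a co-chaperone, had 1743, 1358 and 1139, then 213, 245 and 253, then 1849, 1291 and 1856 (0.24 ± 0.18, adjusted p = 0.255). Fbxl22, an F-box protein of the Z-disc, was the higher one (0.76 ± 0.15, adjusted p = 0.000913). Palmd, palmdelphin, had 1026, 1356 and 1445 against 547, 675 and 514 in the outer stages without overlap, yet was not called (-1.13 ± 0.48, adjusted p = 0.0502). Without proliferating 1, where it had 36 against 175 and 146, its adjusted p was 0.000201 at the same difference.

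Matrix, adhesion and membrane scaffold genes were the largest group, and it split evenly, with 5 of 13 higher, 5 lower and 3 not called. Cd24a, a small glycosylated surface protein (chromosome 10, 43578284 to 43584265), had 192, 268 and 203, then 61, 37 and 56, then 2816, 1811 and 3502. Myotubes exceeded freshly isolated cells by a log2 difference of 3.57 ± 0.27 (adjusted p = 7.17e-07), the largest after Cdkn1c. Bcam, a laminin receptor, rose in the same sense, with 314, 184 and 291 against 1188, 990 and 1282 in the outer stages (2.16 ± 0.30, adjusted p = 8e-05).

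Plekha7, a protein of cell junctions, was higher by 1.53 ± 0.17 (adjusted p = 1.63e-05). Ccdc80, a secreted matrix protein, was higher by 0.58 ± 0.11. The lower members were led by Olfml2a, an olfactomedin-domain matrix protein (chromosome 2, 38931978 to 38963753). It had 11890, 9394 and 11857 in freshly isolated, 8, 71 and 22 in proliferating and 601, 726 and 537 in myotube libraries (log2 difference -4.15 ± 0.57, adjusted p = 6.64e-05).

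Nrep, a small protein of regenerating tissue, had 3687, 1893 and 2770, then 33, 25 and 43, then 236, 265 and 242 (-3.43 ± 0.25, adjusted p = 6.55e-07). Pmp22, known from myelin, was lower by a log2 difference of -2.28 ± 0.23, the receptor phosphatase Ptprf by -1.30 ± 0.18 and Efs, an adaptor of integrin and Src signalling, by -0.60 ± 0.19. Ogn, the small leucine-rich proteoglycan osteoglycin, had 2072, 4009 and 3585, then 106, 191 and 155, then 2984, 2779 and 2946 (-0.10 ± 0.26, adjusted p = 0.746). Pgm5, a protein of the membrane-cytoskeleton contacts of muscle also called aciculin, was not called either (0.43 ± 0.45, adjusted p = 0.402). With only the outer stages in the limma fit, Pgm5 had an adjusted p of 0.0149 at the same difference. Without proliferating 1 it was 0.0243. In a list of 57 matrix genes other than collagens, which includes Ogn, 31 were lower and 16 higher in myotubes than in freshly isolated cells.

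Growth factors, their receptors and antagonists gave 11 members, of which 5 were lower, 1 higher and 5 not called. Tgfb2 and Tgfb3, both ligands that act through the TGF-beta receptors, parted on the return. Tgfb2 had 3883, 3895 and 3788 in freshly isolated, 251, 802 and 451 in proliferating and 1886, 2304 and 1854 in myotube libraries. It was lower in myotubes (log2 difference -0.94 ± 0.32, adjusted p = 0.0205). Tgfb3 had 3235, 3224 and 3502, then 221, 659 and 530, then 4238, 4043 and 4425. Its myotube libraries were all above the freshly isolated ones, but the difference was not called (0.35 ± 0.31, adjusted p = 0.327). With only the outer stages in the limma fit, Tgfb3 had an adjusted p of 0.00593 at the same difference. Without proliferating 1 it was 0.00978. Whether the differences of the 2 genes differ from each other was not tested. The third ligand, Tgfb1, is no member, with 627, 602 and 574, then 459, 345 and 441, then 174, 185 and 167.

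Igf1, which drives growth of muscle, had 368, 236 and 362, then 5, 53 and 28, then 641, 566 and 600. The outer stages did not overlap, yet the log2 difference of 0.93 ± 0.63 was not called (adjusted p = 0.201). When only the outer stages entered the fit its adjusted p was 0.00256, and without proliferating 1 it was 0.00905. In these fits the proliferating libraries, or the lowest of them, no longer entered the spread. In the list of 17 genes of IGF signalling, which includes Igf1, 9 were higher and 4 lower in myotubes than in freshly isolated cells.

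Chrd, the BMP antagonist chordin, had 357, 312 and 198, then 9, 45 and 45, then 200, 198 and 262 (-0.36 ± 0.53, adjusted p = 0.546). Its exons overlap those of Thpo. Rgma, a BMP co-receptor, was lower (-1.07 ± 0.23, adjusted p = 0.00145). Il11ra1, the receptor of interleukin 11 (-1.91 ± 0.32), and Sema3b, a secreted semaphorin (-1.50 ± 0.23), were lower as well. Tnfrsf19, a TNF receptor family member, was the higher one, with 268, 323 and 396 against 710, 686 and 726 in the outer stages (1.12 ± 0.18, adjusted p = 0.00023). The natriuretic peptide clearance receptor Npr3 and the taste receptor subunit Tas1r1, which also senses amino acids, were not called. Of 36 modulators of Wnt, BMP and TGF-beta signalling, which include Chrd, Tgfb2 and Tgfb3, 23 were lower and 7 higher.

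Of 12 intracellular signalling genes, 9 were lower in myotubes than in freshly isolated cells, 1 was higher and 2 were not called. With 12 genes grouped after their values were seen, nothing is read from this share. Prkcq, protein kinase C theta, which muscle expresses strongly (chromosome 2, 11172108 to 11301222), had the largest smaller ratio of all members, 34.3. It had 2065, 1983 and 2732 in freshly isolated, 7, 15 and 23 in proliferating and 564, 440 and 639 in myotube libraries. Myotubes were lower than freshly isolated cells by a log2 difference of -2.04 ± 0.34 (adjusted p = 0.000299).

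Pde1c, a calmodulin-dependent phosphodiesterase, had 3584, 4680 and 4018, then 59, 90 and 84, then 391, 503 and 383 (-3.27 ± 0.18, adjusted p = 9.08e-08). Fry, a scaffold of NDR kinases, had 9645, 10835 and 11070, then 141, 265 and 267, then 1200, 1203 and 1363 (-3.07 ± 0.21, adjusted p = 4.18e-07). In both, the myotube libraries lay far below the freshly isolated ones. The ubiquitin ligase Rnf122 (-2.51 ± 0.26), the kinase Tnik of the Wnt pathway (-1.46 ± 0.09), Ndrg2 (-1.26 ± 0.30), the clock-linked deubiquitinase Usp2 (-1.13 ± 0.27) and Arhgap18 (-0.99 ± 0.16) were lower too. Traf3ip3, an adaptor known from lymphocytes, was the higher one, with 442, 404 and 458, then 26, 104 and 103, then 1385, 1175 and 1393 (1.60 ± 0.43, adjusted p = 0.00618). Its exons overlap those of A130010J15Rik.

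Of 9 members that act in transcription and chromatin, 5 were lower, 2 higher and 2 not called. Heyl, a target of Notch signalling, which keeps satellite cells at rest, had 5645, 6141 and 6428, then 65, 468 and 224, then 1552, 1596 and 1406. The mean was 6071 ± 396 in freshly isolated cells and 1518 ± 99.5 in myotubes (SD, n = 3), and limma called it lower in myotubes (adjusted p = 0.00566, SE of the log2 difference 0.53). Heyl was the only member among 20 genes of the Notch pathway, of which 15 were lower and 3 higher in myotubes than in freshly isolated cells.

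Hr, a nuclear corepressor named for hairless mice, had 4950, 3676 and 3688, then 28, 46 and 57, then 393, 439 and 395 (-3.31 ± 0.23, adjusted p = 4.52e-07). Csdc2, an RNA-binding cold shock protein, was lower by a log2 difference of -1.91 ± 0.25 and the histone demethylase Kdm7a by -1.11 ± 0.18. Zeb1, a repressor that binds E-boxes, exceeded its start by a small step, with 6207, 5886 and 5997, then 1251, 1598 and 1318, then 7911, 7499 and 7896 (0.37 ± 0.10, adjusted p = 0.00595). Zdbf2, an imprinted gene, had 4865, 3831 and 3736, then 532, 956 and 749, then 8372, 7090 and 9816 (1.02 ± 0.20, adjusted p = 0.001). The histone deacetylase Hdac11 was not called (-0.02 ± 0.40, adjusted p = 0.968).

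Members of vesicle traffic, lysosome and protein folding were lower in 5 of 10, higher in 1 and not called in 4. Stx11, a syntaxin, was lower by a log2 difference of -1.63 ± 0.15 (adjusted p = 2.82e-06), and the lysosomal protease Ctsf, cathepsin F, by -0.75 ± 0.19 (adjusted p = 0.00453). Psen2, a gamma-secretase subunit, was the higher one, and its freshly isolated libraries disagreed, with 425, 166 and 154 against 632, 590 and 623 in myotubes (1.47 ± 0.34, adjusted p = 0.00235). Of 32 lysosome and autophagy genes, Ctsf included, 13 were lower and 11 higher. Of the 3 immune surface and interferon genes, the IgG and albumin receptor Fcgrt (-1.42 ± 0.15) and Ifi27 (-1.34 ± 0.19) were lower, and the complement inhibitor Cd55 was not called (-0.29 ± 0.21). The 5 remaining members are little described, and among them Tcp11l2 (-2.05 ± 0.31) and 9330159F19Rik (-0.53 ± 0.18) were lower and 3 were not called.

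**Figure D4:**
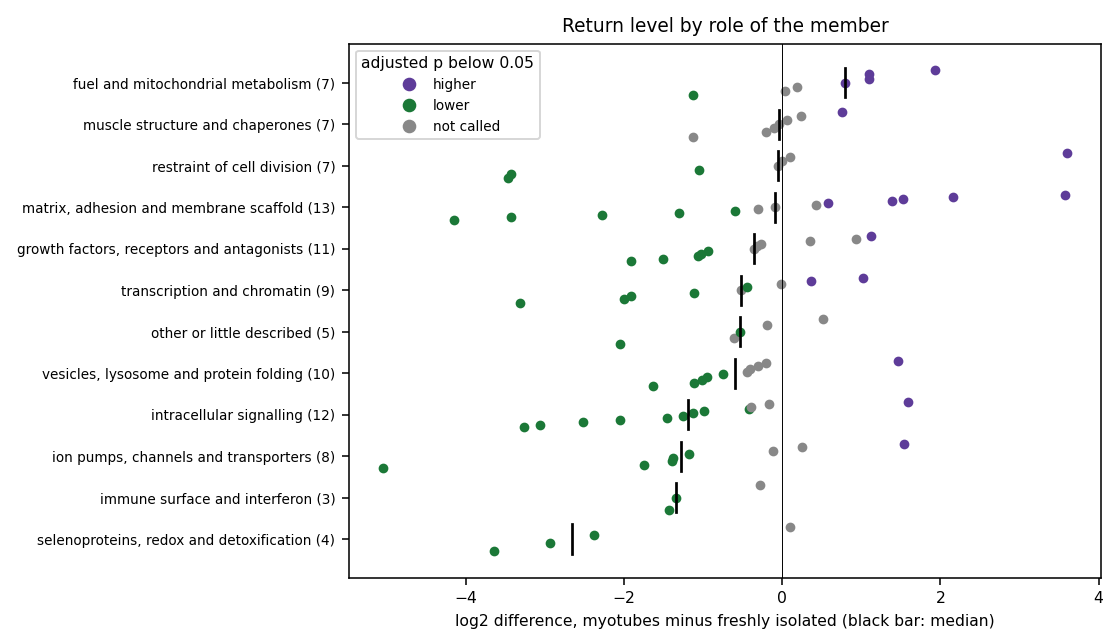
Log2 difference between myotubes and freshly isolated cells for each member (points, coloured by the limma call), grouped by role with the number of members in brackets, and a black bar for the median of each role. The medians run from -2.66 for selenoproteins, redox and detoxification to 0.80 for fuel and mitochondrial metabolism.

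The wider lists show how their other genes moved around the dividing stage. Of all genes tested, 35.7% were lower, 37.6% higher and 73.3% called in either direction in proliferating against freshly isolated cells, and 28.6% were higher, 25.5% lower and 54.1% called in myotubes against proliferating cells. Of the 33 growth arrest genes and FoxO targets, 25 were lower and 5 higher in proliferating cells, and 19 were higher and 6 lower in myotubes than in proliferating cells. Of the 32 lysosome and autophagy genes 21 fell and 6 rose into proliferation, and 19 rose and 3 fell into myotubes. Of the 20 Notch pathway genes 14 were lower and 6 higher at the first step, and 2 were higher and 9 lower at the second. Of the 42 sarcomere genes 26 were higher and 7 lower at the first step, and 41 were higher and 0 lower at the second. Of the 25 mitotic genes, 25 were higher in proliferating than in freshly isolated cells and 18 lower in myotubes than in proliferating cells. Against freshly isolated cells, 25 of the 25 were still higher in myotubes. Their summed counts were 1484 to 2261 in freshly isolated, 97293 to 107496 in proliferating and 28951 to 46826 in myotube libraries. The part of dividing cells in the myotube levels of the members was not tested. These counts include the members on each list.

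Within the proliferating stage most members shared an order of the libraries. Proliferating 1 was the lowest of the 3 in 79 of 96 members (82.3%), against 35.3% of all genes tested. It was at least 2-fold below the mean of the other libraries in 23 members (24.0%), against 5.64% of all genes, and its median ratio to that mean was 0.667 in the members and 1 in all genes. The choice used the mean that contains this library, and 11 of the 96 were not chosen without it. Among the 85 members chosen without proliferating 1, it was the lowest library in 68 (80%), with a median ratio of 0.679. Igf1 (5 against 53 and 28), Heyl (65 against 468 and 224), Abcc9 (11 against 60 and 48), Chrd (9 against 45 and 45) and Pgm5 (54 against 257 and 189) were among the farthest. Muscle differentiation genes were low in the same library: Myog had 2179 against 9530 and 8749, Myh3 3055 against 23038 and 15385, and 38 of 42 sarcomere genes were lowest there. Mki67, a marker of dividing cells, was alike in the 3 libraries with 23855, 25457 and 22495. The part of myoblasts that had begun to differentiate in these values was not tested.

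Within the myotube stage, myotubes 2 was the lowest library in 63 members (65.6%), against 38.1% of all genes tested, and myotubes 3 the highest in 60 (62.5%), against 36.2%. Myotubes 2 also had the most Mki67, 13203 against 9247 and 7550, and the least Myog, 33789 against 37811 and 39734. Among freshly isolated libraries, freshly isolated 2 was lowest in 41.7% of members, against 28.7% of all genes, freshly isolated 1 in 36.5%, against 41.9%, and freshly isolated 3 in 20.8%, against 25.3%. Counts of members over libraries are a description, since the members of 1 library share its cells.

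**Figure D5:**
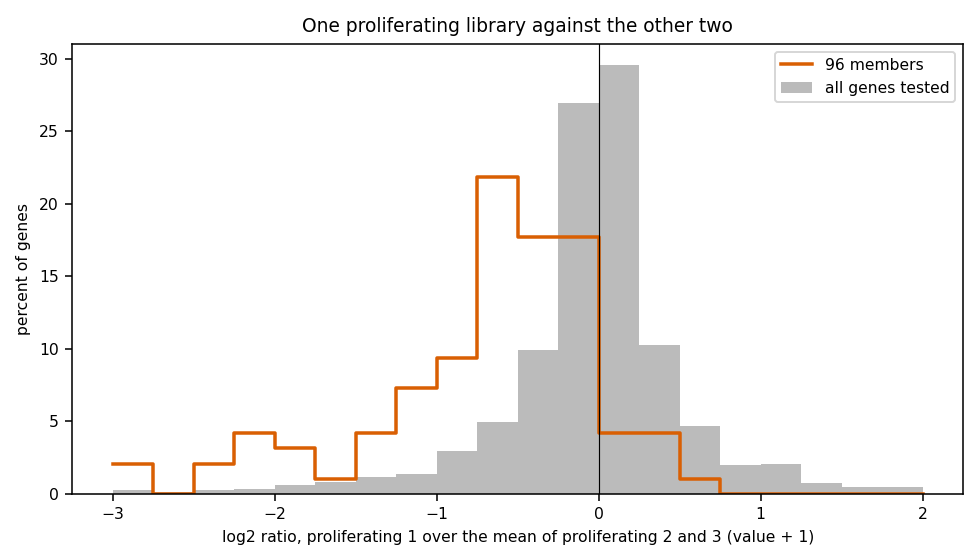
Distribution of the log2 ratio of proliferating 1 to the mean of proliferating 2 and 3 (values plus 1), as the percent of genes in bins of 0.25, for the 96 members (line) and all 17291 genes tested (grey bars); values beyond the ends are in the last bins. The members lie to the left of 0, with a median ratio of 0.667, while all genes centre on a ratio of 1.

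A few members lie side by side. Tmem252 and Pgm5 on chromosome 19 run towards each other and end 0.783 kb apart, Slc22a17 and Efs on chromosome 14 are 3.40 kb apart, and Adck3 and Psen2 on chromosome 1 are 27.4 kb apart, in each case with no coding gene between. Tmem252 had 277, 336 and 394, then 0, 15 and 9, then 199, 207 and 251. Reads running past a gene's end into its neighbour were not measured here. Zfp651 and Hhatl on chromosome 9 lie 12.3 kb apart with Klhl40 between them, which was also lowest in proliferating cells but missed the 4-fold ratio at the first step (933, 374 and 408, then 168, 353 and 311, then 2789, 2560 and 3154). Sesn1 and Ccdc162 on chromosome 10 are 93.3 kb apart, and Cep57l1 between them went the other way, with 52, 52 and 86, then 289, 271 and 236, then 204, 209 and 171. The exons of 35 members overlap those of another gene. In 13 the overlapping gene had more than 0.1 times the member's level, among them Adck3, Chrd, Cryab, Dnaja4, Fbxl22, Rab3a, Ryr3, Slc2a12, Snx32, Sptb, Traf3ip3 and Zfp651. How the counting treated strand is not stated, so these values are uncertain.

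Markers of other cell types give the setting of these levels. Abcc9 is also known from pericytes, and of 15 pericyte or smooth muscle markers 12 passed the filter on low values. Of these 12, Abcc9 included, 3 were higher and 4 lower in myotubes than in freshly isolated cells. Against proliferating cells, 7 were higher and 2 lower in myotubes. The summed counts of all 15 were 27524 to 30008 in freshly isolated, 10581 to 23640 in proliferating and 68382 to 69516 in myotube libraries. Notch3, which satellite cells also express, held 21732 to 23211 of the sum in freshly isolated cells, and Acta2, also made by differentiating muscle cells, held 60374 to 61639 in myotubes. Kcnj8, the pericyte partner of Abcc9, and Higd1b were at 0 or 1 in all myotube libraries, and Vtn had 586, 775 and 697, then 1, 0 and 2, then 2, 5 and 7. They are single genes of a list whose sum was highest in myotubes, and most other markers of it are not shown here. The sum of 14 fibroblast markers was 31396 to 47643 in freshly isolated, 3918 to 4340 in proliferating and 7175 to 8226 in myotube libraries, mostly from Gsn and Col3a1, and of the 10 tested 7 were lower and 2, Pdgfra and Col1a1, higher in myotubes than in freshly isolated cells. Among them Dcn, Dpt, Lum and Cxcl14 were at 7 or below in all cultured libraries, while freshly isolated cells had 405, 840 and 1006 of Dcn and 2449, 3554 and 3249 of Dpt. The sum of 10 endothelial markers was 2064 to 2526 in freshly isolated, 150 to 179 in proliferating and 153 to 179 in myotube libraries, and that of 8 leukocyte markers 812 to 857, 68 to 93 and 253 to 263. The sum of 5 tenocyte markers was 295 to 386, 1596 to 1853 and 3226 to 4185, nearly all of it from Scx in the cultured stages. The satellite cell marker Pax7 was present at all stages, with 15700, 11694 and 12892, then 3330, 2668 and 2556, then 1254, 1645 and 1192. The part of other cell types in the freshly isolated and the myotube levels of the members was not tested.

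The X chromosome was not part of the choice. There, 6 genes met the other conditions (Arhgef6, Atp7a, Capn6, Dmd, Tceal3 and Tspan7). Dmd, the dystrophin gene, had 12628, 17086 and 14324 in freshly isolated, 135, 151 and 124 in proliferating and 16933, 15255 and 17934 in myotube libraries. Dystrophin links the cytoskeleton of the muscle cell to the matrix. Its outer stages overlapped (log2 difference 0.19 ± 0.12, adjusted p = 0.176).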

How the data were processed

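RNA was sequenced from 9 libraries, 3 per stage. Per the labels' protocols, ribosomal RNA was removed from 100 ng of total RNA (RiboGone) before a stranded SMARTer total RNA kit was used. Per the submitters' processing notes, the tools were STAR 2.4.0a and featureCounts 1.4.5-p1 of Subread, on mm10 (GRCm38). The deposited values are a score, namely gene read counts scaled by the authors to make libraries comparable and then rounded. No source used here names the scaling tool. They sum to 17.8 to 26.2 M per library, and the step between low values put the reads at an estimated 12.0 to 24.2 M. Freshly isolated 1 had both the largest sum and the fewest estimated reads. The gene Gm26917 held 22.2% of its sum. The share was 10.59% and 11.21% in the other freshly isolated, 8.53% to 11.03% in proliferating and 2.875% to 3.363% in myotube libraries. Scaling to equal totals used sums that include this gene. Columns prefixed Q were assigned to freshly isolated cells by elimination.

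A gene was kept if 3 or more libraries had a value of at least 10 (17291 genes, all 96 members among them). Stages were compared on log2(value + 1) in limma 3.58.1 (R 4.3.3) with a mean-variance trend, all 9 libraries and Benjamini-Hochberg adjustment over all genes tested, threshold 0.05. No count model was used, because the values are scaled. The script was tested on simulated data. Fold changes understate the change of low genes. The p-values rest on the spread between libraries within stages, estimated over all 3 stages together. The proliferating libraries thus also enter the tests of myotubes against freshly isolated cells. The labels give the libraries of a stage as separate samples.

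The members and the gene lists were chosen with earlier results of these data known. Named are Abcc9, members on a list, the 10 with the largest smaller ratio, the largest called rises and falls, genes next to the thresholds, the 5 genes most like Abcc9, and members of known role; Dmd, Tgfb1 and the genes between neighbours were added after their values were seen. Some members that meet this rule are not reported here by name. Positions and exon lengths come from GENCODE vM21. Tables and figures were made in Python 3.11.15 (pandas 2.3.3; numpy 2.4.6; matplotlib 3.10.9). Alternatives were other pseudocounts, filters, scalings, thresholds and left-out libraries.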

Additional observations from a re-analysis of the deposited data

How the results depend on the processing

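The number of members depends on its thresholds and on the scaling: 149 at a ratio of 3, 32 at a ratio of 8, 49 with means of at least 500, and 54 when the lowest library of each outer stage was set against the highest proliferating library. Scaling to equal totals left 78 of the 96 and lost 18. With libraries left out in turn it ran from 85 to 105. Across pseudocounts of 0.5 and 5, no filter, both rescalings, the 2-stage fit and left-out libraries, 41 to 51 members were lower and 16 to 21 higher in myotubes than in freshly isolated cells, and 12055 to 14954 genes were called in all. Without freshly isolated 1 and proliferating 1, chosen after the data were seen, the counts were 52 and 22. Scaling to equal totals moved the median of all genes by 0.128 and gave 41 lower and 19 higher. The call of 75 members changed under no alternative, none reversed, and 21 crossed the threshold. Zfp651, 9330159F19Rik, Rap1gap2, Efs, Adck3 and Tgfb2 lost their call under at least 1 of them; the cause was not tested.

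With the replicate number as a block, 17 members were higher, 47 lower and 13311 genes called. Deviations of same-numbered libraries from their stage means correlated between -0.034 and 0.027, and those of other-numbered libraries between -0.0575 and 0.0585. With 3 libraries per stage this cannot settle whether same-numbered samples shared cells or animals.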
